A study of Mus musculus with 12 samples.

Results

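Macrophages that had switched on an arginase 1 reporter were compared with macrophages that had not, inside MC38 tumours, which grow from a mouse colon adenocarcinoma line. All mice carried the Arg1-RFP reporter, which marks cells that use the arginase 1 gene with a red fluorescent protein, and the sorted cells shared 1 gate, CD45+ MHCII+ F4/80+ CD11b+, without the surface markers Ly6C, Ly6G, B220, CD90.2 and NK1.1. The reporter then parted them into RFP+ and RFP- cells, with 3 libraries each, numbered 1 to 3 in both gates. These 6 of the 12 libraries of the series were taken by their titles, and the other 6 held the same RFP+ and RFP- gates from B16F10 melanomas of Arg1-RFP mice (numbers 12, 11 and 3). The sources used here give no strain, age, sex or time after tumour injection. Of 24346 gene symbols in the tables, 10609 reached 1 FPKM (a fragment count relative to the length of the transcript and the size of the library) in at least 3 of the 6 MC38 libraries and were tested.

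Arginase 1 splits arginine into ornithine and urea. Ornithine feeds polyamine and proline synthesis, and the loss of arginine from the surroundings is known to restrain T cells. In macrophages the gene is switched on by interleukin 4 signalling, by lactate and low oxygen acting through HIF transcription factors, and by other signals in tumours. HIF factors, held down in normal oxygen by prolyl hydroxylases, raise genes of glycolysis, of new vessel growth and of lipid storage. PF4, the chemokine in the title of the series, is best known from platelets, and macrophages make it too.

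The depth of these FPKM tables is unknown. The most frequent ratio of low values to those of RFP- library 1 was 0.895 to 1.06 in the other MC38 libraries, but only 5.26% to 7.03% of low genes held it, so it is a weak guide to relative depth. FPKM summed to 648466 to 699948 per library, with 10445 to 10541 genes at 1 FPKM or more. Across genes, which are not independent replicates, the 6 libraries correlated at r from 0.974 to 0.986. All 15 macrophage markers of the list used here, among them Csf1r, Adgre1 (F4/80) and Itgam (CD11b), passed the filter, and their summed level was 32450 to 33860 FPKM in RFP+ and 23950 to 27000 FPKM in RFP- libraries, of which Lyz2 made up 48.4% to 57.8% and 38.2% to 47.3%.

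Markers of other cell types were mostly low, and some lists moved with the gate. Below 1 FPKM in all 6 libraries were 9 of 13 T cell markers (Cd3d, Cd3e, Cd3g and Cd8a among them), 5 of 10 NK, 13 of 15 epithelial and colon carcinoma (Epcam, Krt8 and Krt18 among them), 8 of 12 fibroblast and 8 of 11 endothelial markers. Members well above 1 FPKM included Cdh1 (6.11 to 11.7 FPKM), Pecam1 (8.12 to 17.3 FPKM), Col3a1 (9.96 to 27.8 FPKM), Col6a1 (11.7 to 21.7 FPKM) and Dcn (30.2 to 42.2 FPKM). Csf3r, of the neutrophil list, was at 30.8 to 41.8 FPKM. The summed pigment cell list was 15.2 to 20.1 FPKM in RFP+ and 11.6 to 15.4 FPKM in RFP-, with Tyrp1 at 1.49 to 2.98 FPKM. The summed dendritic cell list was lower in RFP+ in 3 of 3 pairs (50.2 to 76.8 against 76.9 to 118.5 FPKM), and so was the NK list (15.6 to 24.5 against 27.8 to 35.3 FPKM). The T cell list was higher in RFP+ in 3 of 3 pairs (24.9 to 50.7 against 12.4 to 38.1 FPKM), and so was the fibroblast list (71.04 to 85.3 against 60.7 to 81.2 FPKM). Il7r held most of the T cell sum, at 27.7, 41.4 and 22.97 FPKM in RFP+ and 17.6, 27.2 and 9.505 FPKM in RFP-. Cd2 was 2.11, 6.58 and 0.918 FPKM in RFP+ and 2.17, 9.785 and 0.479 FPKM in RFP-, so lower in pairs 1 and 2. The epithelial list was lower in 3 of 3 pairs (7.83 to 12.7 against 8.22 to 13.6 FPKM), as was the B cell gene Cd79b (16.2 to 23.2 against 19.8 to 33.9 FPKM). The part of such cells in the gate differences was not tested.

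Arg1, on chr10:24915221-24927484 (GRCm38), was read first, since the gate selects on its reporter. It stood at 471, 553 and 394 FPKM in RFP+ libraries 1 to 3 and 56.04, 58.5 and 40.6 FPKM in RFP- libraries 1 to 3. The gates did not overlap, and Arg1 was still well above 1 FPKM in cells sorted as reporter-negative. The log2 difference, on the log2(FPKM + 1) scale used throughout, was 3.17 ± 0.13 (SE, limma adjusted p = 7.85e-07). This checks the labels and is no finding of its own.

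RFP+ and RFP- libraries were compared in pairs by number. A gene was called higher or lower when its limma p, adjusted by the Benjamini-Hochberg method over the 10609 genes, was under 0.05. The fit held 49 genes higher in RFP+ (0.462% of genes tested) and 13 lower (0.123%). All 62 moved the same way in 3 of 3 pairs, where 18% of all genes were higher and 16% lower in every pair. Of the 49, 40 had every RFP+ library above every RFP- library (6.57% of all genes), and of the 13, 12 had every RFP+ library below (5.13%). The higher genes ran from log2 0.58 to 3.17 and the lower from -0.78 to -1.995, and 25 of the 49 and 12 of the 13 reached a size of 1. Npy, Prss46 and Fcrl5, 3 of the 62, reached 1 FPKM in 1 gate only, as did 0.311% of all genes tested. They passed the filter only through the gate where they are high, so their calls are given no weight. Within a bulk library, fewer cells of a type and less RNA per cell cannot be told apart.

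The number of calls turned on the treatment of the pairs and of the other tumour. That fit took all 12 libraries with the number within each tumour as a replicate block, so that the spread was shared over both tumours. With the 6 MC38 libraries alone, still paired, 244 genes were higher (2.3%) and 98 lower (0.924%), including all 62. The MC38-alone fit has fewer residual degrees of freedom, so its SEs lean more on the spread of other genes. For H2-Ab1, as an example, the SE was 0.0836 there and 0.218 in the 12-library fit. Each p given below as alone carries this limit. Without the block, over 12 libraries, 3 were higher, namely Arg1, Hilpda and Clec4d (limma adjusted p = 0.00023, 0.00931 and 0.0102), and 0 lower. Adjusted p was then 0.0607 to 1 for the other 46 higher genes and 0.0962 to 0.328 for the 13 lower ones, so these calls were lost in that fit. With the 6 MC38 libraries alone and unpaired, 9 of the 62 were called, those 3 and Clec4b1, Htr2b, Npy, Slc48a1, Smpdl3a and Syngr1. The call of Npy is given no weight here either. The other 53 were called in neither unpaired fit. Leaving out the pair with number 1, 2 or 3 left 4, 10 and 4 higher genes and 0, 1 and 3 lower, and Arg1, Hilpda and Spp1 were called each time.

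**Figure D1:**
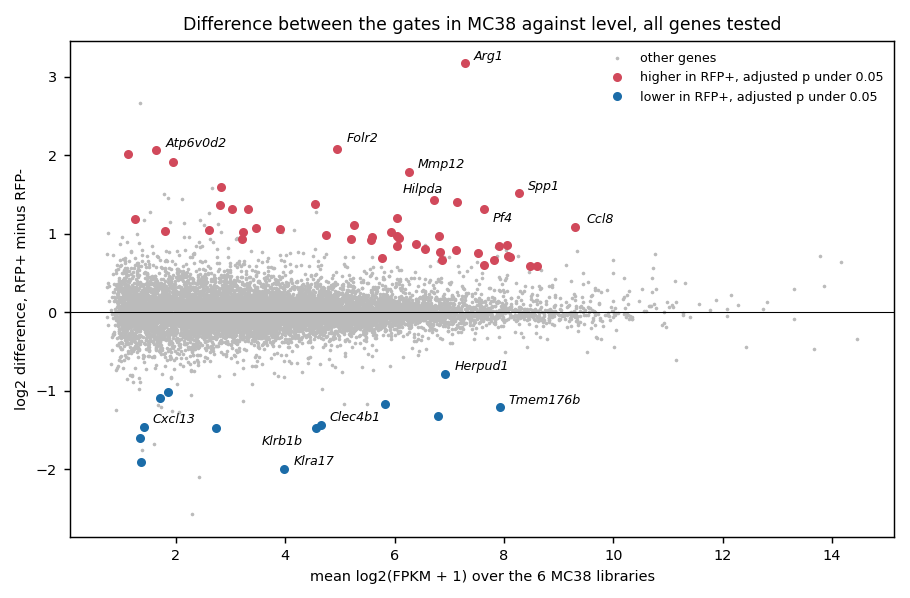
Log2 difference between RFP+ and RFP- macrophages of MC38 tumours (y axis) against mean log2(FPKM + 1) over the 6 libraries (x axis), 1 point per gene. Red points are the 49 higher genes and blue points the 13 lower ones, with Arg1 at 3.17 and Klra17 at -1.995 the outermost of the called genes.

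Genes of the hypoxia response were among those higher in RFP+ macrophages. Of the 31 genes on this list that were tested, 5 were called higher, 0 lower, and 26 were higher in 3 of 3 pairs, with a median log2 difference of 0.37 beside 0.0024 over all genes tested. Over all genes tested, 0.462% were called higher and 0.123% lower, and 18% were higher and 16% lower in every pair. With the MC38 libraries alone 14 of the 31 were higher and 0 lower, where 2.3% and 0.924% of all genes were. These shares over all genes are the background for each list below. The 5 called hypoxia genes were Hilpda, which guards stored triglyceride by inhibiting lipolysis, Egln3, a prolyl hydroxylase that marks HIF for decay, P4ha2, a collagen prolyl hydroxylase, Bnip3, a mitophagy receptor, and Adm, the vasodilator peptide adrenomedullin.

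The promoters of 3 of these 5 genes are shown, because they carry the core letters bound by HIF in bases that overlap no annotated exon. Each is the 250 bases before the RefSeq gene start (GRCm38.p6, gene strand, 5′ to 3′), with ACGTG and GCGTG on either strand in capitals. P4ha2 lies on the plus strand at chr11:54100674-54100923, Adm on the plus strand at chr7:110627407-110627656 and Egln3 on the minus strand at chr12:54203875-54204124. In GENCODE the P4ha2 gene spans chr11:54100095-54131665, so its window lies before the RefSeq start but inside the GENCODE gene, between exons.
P4ha2: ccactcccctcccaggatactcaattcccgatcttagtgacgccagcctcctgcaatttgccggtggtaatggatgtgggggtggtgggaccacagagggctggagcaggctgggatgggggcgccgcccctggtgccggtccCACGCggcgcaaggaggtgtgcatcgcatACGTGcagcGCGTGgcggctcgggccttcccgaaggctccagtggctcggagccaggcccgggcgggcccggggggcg
Adm: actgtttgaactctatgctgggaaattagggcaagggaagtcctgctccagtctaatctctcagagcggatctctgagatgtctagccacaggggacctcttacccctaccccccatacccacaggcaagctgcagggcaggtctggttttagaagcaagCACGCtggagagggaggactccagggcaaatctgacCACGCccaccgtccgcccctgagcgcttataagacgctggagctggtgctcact
Egln3: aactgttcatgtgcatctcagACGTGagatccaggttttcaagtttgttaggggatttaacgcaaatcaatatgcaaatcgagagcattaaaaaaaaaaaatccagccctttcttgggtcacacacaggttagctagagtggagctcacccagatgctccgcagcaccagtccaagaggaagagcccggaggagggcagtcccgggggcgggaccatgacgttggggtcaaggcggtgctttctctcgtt
The P4ha2 window held 3 matches, the Adm window 2 and the Egln3 window 1, and these windows were picked for holding a match. Not shown is the Hilpda window at chr6:29272238-29272487, which overlaps no exon and held 0 matches. The 3 matches of Hilpda lay in another window that overlaps an exon, and those of Bnip3 also lay in such a window. Of all 32851 RefSeq promoter windows of this length, 38.6% held a match. By gene, 41.5% of all genes with an entry had a match in at least 1 window, as did 62.6% of the 8136 tested genes with an entry, 24 of the 25 hypoxia genes with an entry and 21 of the 36 called higher genes with an entry. The letters are short and a match is a description only.

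Hilpda stood at 199, 249 and 240.1 FPKM in RFP+ libraries 1 to 3 and 67.01, 94.7 and 97.9 FPKM in RFP- libraries 1 to 3. All RFP+ values lay above all RFP- values, and differed by log2 1.41 ± 0.11 (SE, limma adjusted p = 0.000354). Hilpda was also called in 17 of 18 alternative fits. Bnip3 was 316, 388 and 272 FPKM in RFP+ and 173, 224 and 148 FPKM in RFP-, again with no overlap, and its log2 difference was 0.85 ± 0.12 (SE, limma adjusted p = 0.00854). P4ha2 was 15.9, 15.4 and 13.6 FPKM in RFP+ and 7.97, 5.34 and 6.73 FPKM in RFP-, and differed by log2 1.07 ± 0.14 (SE, limma adjusted p = 0.00803). Egln3 was 12.9, 12.8 and 10.2 FPKM in RFP+ and 4.68, 3.01 and 5.07 FPKM in RFP-, and differed by log2 1.32 ± 0.20 (SE, limma adjusted p = 0.0133). For both of these low genes every RFP+ library was above every RFP- library. Adm, the lowest of the 5 and outside the rule for named genes, was 10.9, 6.01 and 7.02 FPKM in RFP+ and 4.29, 2.35 and 3.25 FPKM in RFP- (log2 1.05 ± 0.20 (SE, limma adjusted p = 0.0497)). Vegfa, the main vessel growth factor of the list, was 222, 257 and 201 FPKM in RFP+ and 138, 188 and 117 FPKM in RFP-. Its log2 difference of 0.63 ± 0.16 did not pass (limma adjusted p = 0.189) in the 12-library fit and passed in the MC38 libraries alone (adjusted p = 0.000256).

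Glycolysis, the route from glucose to pyruvate and lactate, gave small differences of 1 sign. Of 19 genes, 0 were called in the 12-library fit, 14 were higher in 3 of 3 pairs and 0 lower, and the median log2 difference was 0.30. With the MC38 libraries alone 11 were higher. The lactate exporter Slc16a3 (log2 0.59 ± 0.16, limma adjusted p = 0.216, and 0.000199 alone) and the glucose transporter Slc2a1 (0.52 ± 0.12, limma adjusted p = 0.139, and 0.0025 alone) led the list. Abundant enzymes differed less, Aldoa by 0.43 ± 0.18 and Ldha by 0.30 ± 0.15, with limma adjusted p of 0.702 and 0.862. In B16F10 the median over the same glycolysis genes was -0.10. Of 37 genes of oxidative phosphorylation 0 were called, with a median of -0.02, and 3 were higher and 8 lower in every pair.

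**Figure D2:**
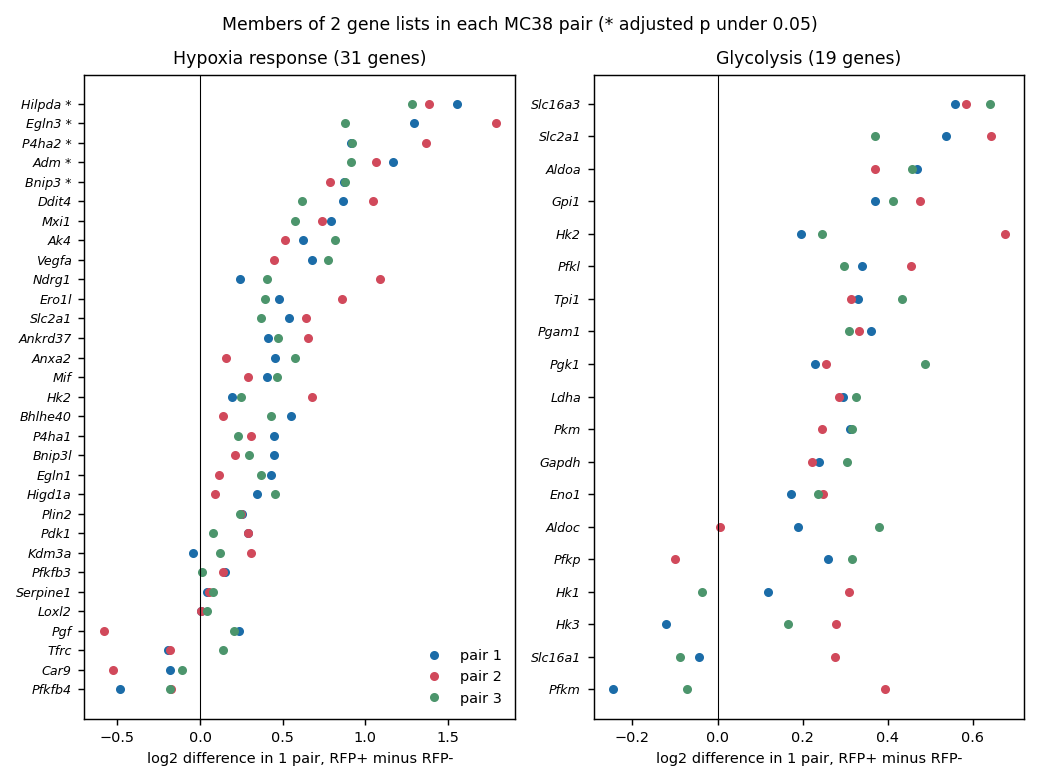
Log2 difference between RFP+ and RFP- in each MC38 pair (x axis, 1 colour per pair) for the 31 hypoxia genes and the 19 glycolysis genes tested (y axis), where an asterisk marks a gene called in the 12-library fit. Hilpda, Egln3, P4ha2, Adm and Bnip3 carry the asterisk in the hypoxia list and 0 genes carry it in the glycolysis list.

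Genes of lipid-laden macrophages were the second group, which shares Hilpda with the hypoxia list. Of 26 lipid-associated and lipid-handling genes, 4 were called higher (Spp1, Fabp5, Hilpda and Gpnmb) and 0 lower, 16 were higher and 3 lower in every pair, and the median log2 difference was 0.38. Spp1, which encodes the secreted glycoprotein osteopontin, stood at 422, 783 and 433 FPKM in RFP+ libraries 1 to 3 and 146, 280.3 and 148 FPKM in RFP- libraries 1 to 3. RFP- library 2 came closest to the RFP+ gate, and the gates did not overlap. The log2 difference was 1.52 ± 0.12 (SE, limma adjusted p = 0.000392). Fabp5, a fatty acid carrier, was 188, 220.4 and 122 FPKM in RFP+ and 56.9, 103 and 43.05 FPKM in RFP-, and differed by log2 1.43 ± 0.16 (SE, limma adjusted p = 0.00343). Gpnmb, a glycoprotein of phagocytic macrophages, was 41.5, 65.97 and 60.01 FPKM in RFP+ and 16.1, 39.8 and 23.9 FPKM in RFP-, and differed by log2 1.11 ± 0.14 (SE, limma adjusted p = 0.00705). For both genes library 2 was the highest in each gate, and the gates did not overlap.

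Other members of the lipid list had differences that were called in the MC38 libraries alone. Apoe, a lipid carrier and among the 6 most abundant genes of both gates, was 20989.5, 21369.7 and 27241 FPKM in RFP+ and 12036, 15337 and 17346 FPKM in RFP- (log2 0.64 ± 0.19, limma adjusted p = 0.331, and 0.000604 alone). Trem2, a lipid-sensing receptor, was 284, 279 and 335 FPKM in RFP+ and 223, 225 and 226 FPKM in RFP- (log2 0.41 ± 0.11, limma adjusted p = 0.251, and 0.00538 alone). Pparg, a nuclear receptor for fatty acids, went the other way, from 15.7 ± 4.298 FPKM in RFP- and 10.3 ± 3.68 FPKM in RFP+ (log2 -0.59 ± 0.18, limma adjusted p = 0.368, and 0.0251 alone). Lpl, also lower in every pair, passed in neither fit (log2 -0.58 ± 0.26, limma adjusted p = 0.756, and 0.055 alone). Of 22 genes of cholesterol and fatty acid synthesis 0 were called, with a median of -0.09.

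Matrix remodelling genes held 5 called higher of 22, 0 lower, and a median log2 difference of 0.29. Mmp12, the macrophage elastase, was 124, 200.5 and 115 FPKM in RFP+ libraries 1 to 3 and 30.3, 76.4 and 28.3 FPKM in RFP- libraries 1 to 3, and differed by log2 1.79 ± 0.20 (SE, limma adjusted p = 0.00333). No RFP+ library fell to the level of an RFP- library. Mmp13, a collagenase and outside the rule for named genes, was 71.5, 118 and 75.3 FPKM in RFP+ and 23.99, 72.7 and 41.5 FPKM in RFP-, and its gates overlapped because RFP- library 2 exceeded RFP+ library 1. Its log2 difference was 1.03 ± 0.19 (SE, limma adjusted p = 0.0439). Both protease genes lie in 1 cluster on chromosome 9 (Mmp13 at chr9:7272514-7283331, Mmp12 at chr9:7344381-7369499). Fn1, the matrix protein fibronectin, was 111, 155 and 107 FPKM in RFP+ and 58.6, 103 and 56.1 FPKM in RFP- (log2 0.80 ± 0.12 (SE, limma adjusted p = 0.0169)), Thbs1, thrombospondin 1, was 259, 409.6 and 385 FPKM in RFP+ and 148, 262 and 234 FPKM in RFP- (log2 0.72 ± 0.13 (SE, limma adjusted p = 0.0395)), and Adam8, a membrane sheddase, was 223, 273 and 224 FPKM in RFP+ and 126, 173 and 128 FPKM in RFP- (log2 0.76 ± 0.10 (SE, limma adjusted p = 0.00803)). The gates of Adam8 stood clear of each other, those of Fn1 nearly met, and those of Thbs1 overlapped. F13a1, the clotting factor that cross-links fibrin and is also a gene of resident-like macrophages, was 19.1, 81.5 and 30.7 FPKM in RFP+ and 6.17, 52.8 and 6.84 FPKM in RFP- (log2 1.37 ± 0.22 (SE, limma adjusted p = 0.0184)), with number 2 highest in both gates.

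Of the chemokines, 2 were called higher and 1 lower among 24. Pf4, at chr5:90772435-90773383, was 249, 433 and 283 FPKM in RFP+ libraries 1 to 3 and 86.3, 216 and 105 FPKM in RFP- libraries 1 to 3. The lowest RFP+ library exceeded the highest RFP- library, and within each number RFP+ was the higher. The log2 difference was 1.31 ± 0.19 (SE, limma adjusted p = 0.00947), and without the block adjusted p was 0.556. Ppbp, its neighbour on chromosome 5 at chr5:90768518-90770063 and, like it, best known from platelets, was near the floor in all 6 (1.23, 3.16 and 0.0139 FPKM in RFP+ and 1.66, 1.29 and 0.143 FPKM in RFP-). The platelet marker list summed to at most 2 FPKM in each library. Ccl8, a ligand of monocyte and T cell chemokine receptors, was 853, 1257 and 731 FPKM in RFP+ and 415, 522 and 372 FPKM in RFP- (log2 1.09 ± 0.17 (SE, limma adjusted p = 0.0184)). Cxcl13, the B cell attractant, was low throughout at 0.140, 0.158 and 2.08 FPKM in RFP+ and 4.63, 1.98 and 4.09 FPKM in RFP- and lower in RFP+ (log2 -1.46 ± 0.26 (SE, limma adjusted p = 0.0333)), with RFP+ library 3 just above RFP- library 2. Ccl2, the main monocyte attractant, was 433, 415 and 853 FPKM in RFP+ and 479, 485 and 796 FPKM in RFP-, a log2 difference of -0.09 ± 0.15 that did not pass (limma adjusted p = 1). Cxcl9, which draws activated T cells, was 76.8, 80.3 and 58.2 FPKM in RFP+ and 102, 100.5 and 76.6 FPKM in RFP- (log2 -0.37 ± 0.14, limma adjusted p = 0.613, and 0.0148 alone). The median over the chemokines was 0.04 and changed sign in 4 of 17 alternative fits.

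**Figure D3:**
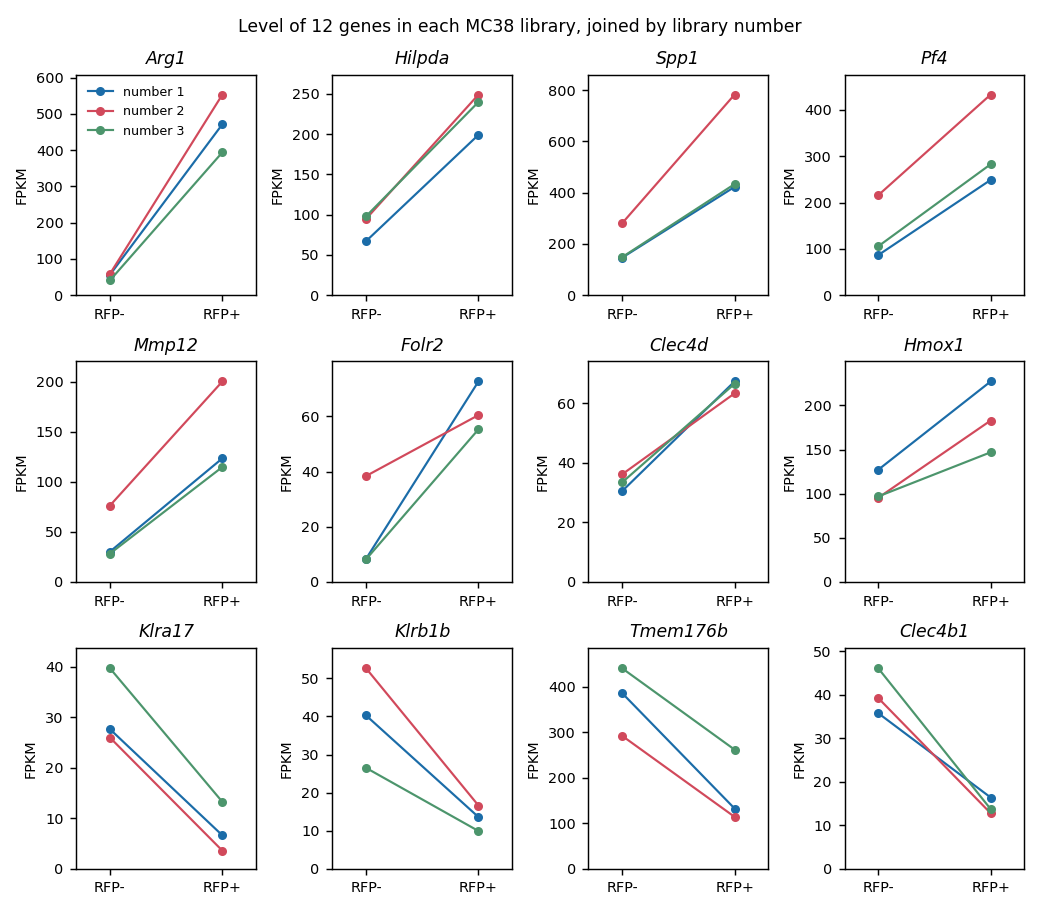
Level in FPKM (y axis, from 0) of 12 genes in RFP- and RFP+ libraries of MC38 tumours (x axis), with lines joining libraries of 1 number. The 8 genes of the upper panels rise along all 3 lines and the 4 of the bottom row fall along all 3, and the Folr2 line of number 2 starts at 38.4 FPKM where the others start at 8.38 and 8.19.

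Among cytokines and growth factors, 2 of 33 were called higher, Spp1 and Il1rn, and 0 lower. Il1rn, which blocks the interleukin 1 receptor, was 325, 410.4 and 628 FPKM in RFP+ and 207, 293 and 409.6 FPKM in RFP- (log2 0.58 ± 0.11 (SE, limma adjusted p = 0.0497)). Il1b, its agonist counterpart, was 1704, 1852 and 3424 FPKM in RFP+ and 1689, 1917 and 2785 FPKM in RFP-, a log2 difference of 0.09 ± 0.22 (limma adjusted p = 1). For both, number 3 was highest in either gate.

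Some markers of resident-like macrophages were higher as well, with 3 of 22 genes of the complement and resident-like list called (Folr2, F13a1 and Ccl8) and 0 lower, 13 higher and 1 lower in every pair, and a median of 0.27. Folr2, a folate receptor of perivascular and resident macrophages, was 72.7, 60.5 and 55.3 FPKM in RFP+ libraries 1 to 3 and 8.38, 38.4 and 8.19 FPKM in RFP- libraries 1 to 3. RFP- library 2 stood far above the other RFP- libraries and still lay below all RFP+ libraries. The log2 difference of 2.08 ± 0.33 (SE, limma adjusted p = 0.021) was next after that of Arg1 among the called genes. The complement gene C1qa, abundant in both gates, was 2138, 2143 and 2401 FPKM in RFP+ and 1989, 2158 and 2243 FPKM in RFP- (log2 0.06 ± 0.13, limma adjusted p = 1). The mannose receptor Mrc1 was 25.3, 41.2 and 24.4 FPKM in RFP+ and 19.2, 36.2 and 20.02 FPKM in RFP- (log2 0.28 ± 0.16, limma adjusted p = 0.944).

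In arginine metabolism, without Arg1, 2 of 24 genes were called higher and 0 lower, and the median was 0.15. Slc7a2, a transporter that brings arginine into the cell, was 10.9, 19.6 and 4.71 FPKM in RFP+ and 2.86, 7.21 and 1.61 FPKM in RFP- (log2 1.36 ± 0.24 (SE, limma adjusted p = 0.0375)). Nos2, the inducible nitric oxide synthase that uses the same substrate as arginase, was 12.1, 17.4 and 9.01 FPKM in RFP+ and 5.02, 7.12 and 4.81 FPKM in RFP- (log2 1.03 ± 0.18 (SE, limma adjusted p = 0.0349)), with no overlap for Nos2 and an overlap for Slc7a2. Ass1, which rebuilds arginine from citrulline, was 16.4, 19.2 and 15.6 FPKM in RFP+ and 15.7, 18.01 and 12.3 FPKM in RFP- (log2 0.16 ± 0.17, limma adjusted p = 1). Nos2 is a member of the classical activation list (1 of 20 higher, median 0.10) and Slc7a2 and Il1rn of the alternative activation list without Arg1 (2 of 22 higher, median 0.22), and 0 genes of either list were lower.

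Genes of lysosomes and of heme handling showed a like pattern. Of 40 lysosome and proton pump genes 2 were called higher, 0 lower, and 28 were higher and 2 lower in every pair, with a median of 0.15. Atp6v0d2, a macrophage and osteoclast form of a proton pump subunit, was 4.103, 7.47 and 4.99 FPKM in RFP+ and 0.402, 1.29 and 0.104 FPKM in RFP- (log2 2.06 ± 0.20 (SE, limma adjusted p = 0.00142)). Its level was low, and RFP- libraries 1 and 3 lay under 1 FPKM. Ctsl, the protease cathepsin L, was 232, 292 and 210.0 FPKM in RFP+ and 166, 189 and 131 FPKM in RFP- (log2 0.60 ± 0.10 (SE, limma adjusted p = 0.0317)). Ctsd, cathepsin D, at 1358 ± 185 FPKM in RFP- and 2269 ± 286 FPKM in RFP+, had a log2 difference of 0.74 ± 0.15 that missed the threshold (limma adjusted p = 0.055). Among 28 genes of oxidative stress, heme and iron, 2 were called higher and 0 lower, with a median of 0.19. Hmox1, which breaks down heme, was 227, 183 and 147 FPKM in RFP+ and 127, 95.3 and 96.9 FPKM in RFP- (log2 0.79 ± 0.11 (SE, limma adjusted p = 0.00922)), and Slc48a1, which exports heme from the lysosome, was 69.8, 68.7 and 66.5 FPKM in RFP+ and 41.2, 42.9 and 41.8 FPKM in RFP- (log2 0.69 ± 0.11 (SE, limma adjusted p = 0.023)). Both genes had no overlap between gates, and Slc48a1 varied by a few FPKM within each.

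C-type lectin receptors of 1 gene cluster went in opposite directions. Clec4d and Clec4n, which encode the activating receptors MCL and Dectin-2 for microbial sugars and glycolipids, were higher, and Clec4b1, a neighbour, was lower, while the list as a whole (30 genes) had 2 higher, 1 lower and a median of 0.01. Clec4d was 67.4, 63.4 and 66.6 FPKM in RFP+ and 30.5, 36.2 and 33.4 FPKM in RFP-, and differed by log2 0.96 ± 0.13 (SE, limma adjusted p = 0.00803). Clec4n was 266, 411 and 203 FPKM in RFP+ and 168, 250.1 and 133 FPKM in RFP-, and differed by log2 0.66 ± 0.11 (SE, limma adjusted p = 0.0235). Clec4b1 was 16.4, 12.8 and 13.7 FPKM in RFP+ and 35.8, 39.2 and 46.1 FPKM in RFP-, and differed by log2 -1.44 ± 0.23 (SE, limma adjusted p = 0.0184). On chromosome 6 they lie at chr6:123049962-123071555 (Clec4b1), chr6:123229843-123247021 (Clec4n) and chr6:123262111-123275265 (Clec4d), all on the plus strand. Clec4d and Clec4b1 had no overlap between gates, and Clec4n did because RFP- library 2 exceeded RFP+ library 3. Clec4e, a further member, had a log2 difference of 0.38 ± 0.13 and Clec4a3 of -0.51 ± 0.13 (limma adjusted p = 0.431 and 0.172).

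Several genes of receptors and membrane proteins were called lower. Klra17, of the Ly49 receptor family, was 6.62, 3.58 and 13.3 FPKM in RFP+ libraries 1 to 3 and 27.7, 26.0002 and 39.7 FPKM in RFP- libraries 1 to 3, and differed by log2 -1.995 ± 0.23 (SE, limma adjusted p = 0.00424). Klrb1b, of the NKR-P1 family, was 13.6, 16.6 and 9.92 FPKM in RFP+ and 40.3, 52.6 and 26.5 FPKM in RFP- (log2 -1.48 ± 0.20 (SE, limma adjusted p = 0.00803)). For each of these genes the gates stood clear of each other. These families are best known from NK cells, and the summed NK list, as given above, was lower in RFP+ in 3 of 3 pairs. Its member Klrk1 was 9.77, 13.7 and 21.1 FPKM in RFP+ and 21.1, 23.4 and 30.9 FPKM in RFP-, and held most of the sum. Klrd1 went the other way in each pair, at 1.01, 1.497 and 2.28 FPKM in RFP+ and 0.314, 0.739 and 1.23 FPKM in RFP-. Of the 4 NK list members tested, 1 was higher and 1 lower in every pair. Gzma (up to 6.59 FPKM), Gzmb and Klrb1c also exceeded 1 FPKM in at least 1 library, while Ncr1, Klra8, Prf1, Eomes and Klre1 did not. The part of NK cells in the lower Klra17 and Klrb1b values was not tested. Tmem176a and Tmem176b, ion channel-like membrane proteins of myeloid cells, stood apart in the same way. Tmem176a was 60.1, 52.2 and 104 FPKM in RFP+ and 174, 159 and 192 FPKM in RFP-. Tmem176b was 132, 114 and 262 FPKM in RFP+ and 386, 292 and 441 FPKM in RFP-. Their log2 differences were -1.33 ± 0.22 (SE, limma adjusted p = 0.023) and -1.21 ± 0.16 (SE, limma adjusted p = 0.00803), with RFP+ library 3 the highest of its gate for both. The genes overlap at their 5′ ends on chromosome 6 (chr6:48833818-48841496 on the minus and chr6:48840919-48847071 on the plus strand), and without strand in the counting their reads cannot be told apart there. Reads of Klra17, Klrb1b, Clec4b1 and Gbp2b may also be shared with close family members.

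Asb2, a ubiquitin ligase subunit, was 2.79, 1.71 and 5.04 FPKM in RFP+ and 8.22, 8.12 and 14.9 FPKM in RFP- (log2 -1.48 ± 0.22 (SE, limma adjusted p = 0.0124)). Herpud1, a factor of protein quality control at the endoplasmic reticulum, was 85.9, 79.9 and 113 FPKM in RFP+ and 154, 162 and 160.4 FPKM in RFP- (log2 -0.78 ± 0.15 (SE, limma adjusted p = 0.0453)). It was the 1 gene called among 27 of the unfolded protein and integrated stress response, whose median of 0.02 changed sign in 6 of 17 alternative fits. Gbp2b, an interferon-induced GTPase, was 43.97, 37.4 and 29.6 FPKM in RFP+ and 105, 91.7 and 60.3 FPKM in RFP- (log2 -1.17 ± 0.22 (SE, limma adjusted p = 0.0497)), and was the 1 gene called among 23 of the interferon gamma response (1 higher and 10 lower in every pair, median -0.05). Of 31 type I interferon genes 0 were called, with a median of 0.02.

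Antigen presentation through MHC class II, by which macrophages show peptides to CD4 T cells, had log2 differences below 0 without a call in the 12-library fit. Of 12 genes, 0 were called, 1 was higher and 8 were lower in every pair, and the median was -0.40. With the MC38 libraries alone 7 of them were lower and 0 higher. H2-Ab1 was 12745, 10953 and 9683 FPKM in RFP+ libraries 1 to 3 and 15958, 17137 and 12979.6 FPKM in RFP- libraries 1 to 3. Every RFP+ library was below every RFP- library, with a log2 difference of -0.46 ± 0.22 (limma adjusted p = 0.802, and 0.00615 alone). H2-Eb1 had a log2 difference of -0.61 ± 0.18, H2-DMb1 of -0.51 ± 0.13 and Ciita, the master regulator of these genes, of -0.69 ± 0.29 (limma adjusted p = 0.283, 0.2 and 0.701, and 0.000237, 0.000806 and 0.022 alone). Cd74, the invariant chain and the most abundant gene in RFP-, was 21840.2, 18935 and 19202 FPKM in RFP+ and 25071, 27160.5 and 24028 FPKM in RFP- (log2 -0.35 ± 0.20, limma adjusted p = 0.944). Of 20 MHC class I genes 0 were called, with a median of -0.04.

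Dendritic cell genes had log2 differences below 0 beside the class II genes. Of the 10 list members tested, 1 was called lower, 0 were higher and 7 lower in every pair, and the median was -0.47. The called gene, Xcr1, a chemokine receptor of cross-presenting dendritic cells and outside the rule for named genes, was 1.09, 1.02 and 1.63 FPKM in RFP+ and 2.97, 3.61 and 4.799 FPKM in RFP- (log2 -1.09 ± 0.20 (SE, limma adjusted p = 0.0419)). Clec9a, of the same cells, was 0.701, 0.850 and 0.527 FPKM in RFP+ and 1.695, 1.795 and 2.35 FPKM in RFP-, and Ccr7, of migrating dendritic cells, was 18.4, 25.7 and 9.18 FPKM in RFP+ and 23.9, 50.9 and 12.8 FPKM in RFP-. Flt3 stayed at 1.09 FPKM or below. The part of dendritic cells in the lower class II values was not tested.

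**Figure D4:**
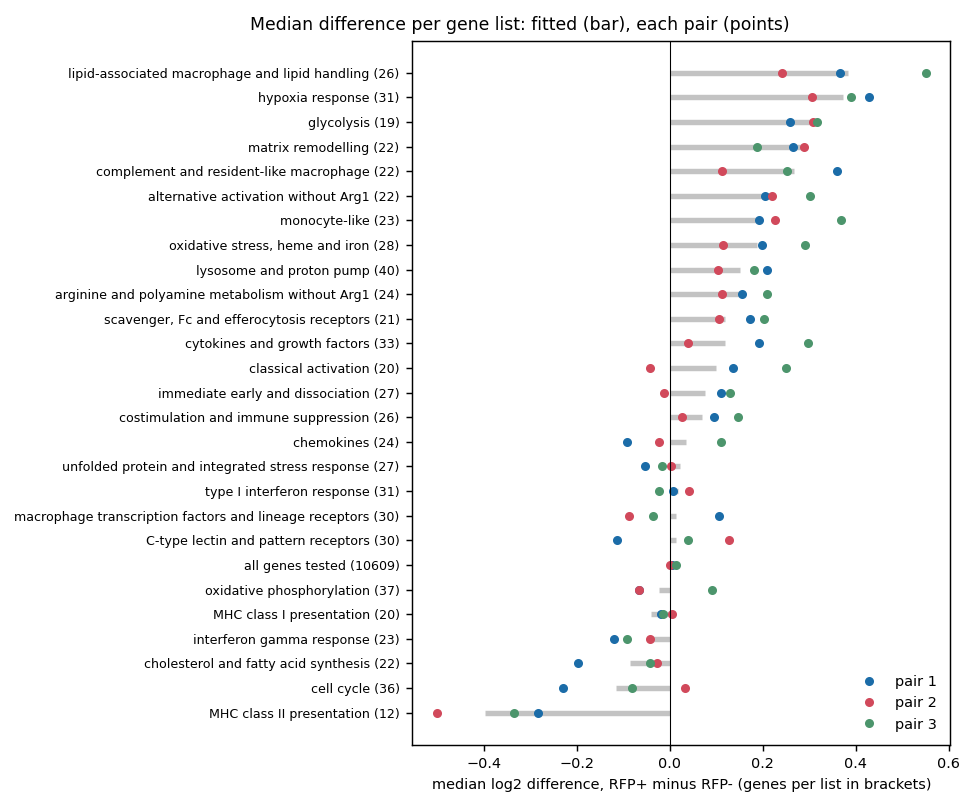
Median log2 difference between RFP+ and RFP- over the tested members of 26 gene lists and over all 10609 genes (y axis), as fitted (bars) and within each pair (points). Lipid handling and hypoxia stand at the upper end with medians of 0.38 and 0.37, MHC class II at the lower end with -0.40, and all genes at 0.0024.

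Several lists gave 0 calls in the 12-library fit. For scavenger, Fc and efferocytosis receptors (21 genes, median 0.12) 7 were higher and 0 lower with the MC38 libraries alone, among them Msr1, Cd36 and Cd68. For transcription factors and lineage receptors of macrophages (30 genes, median 0.01) 5 were then higher and 4 lower, for costimulation and immune suppression (26 genes, median 0.07) 2 were higher and 0 lower, and for cell cycle (36 genes, median -0.12) 0 were called. Cd274, which encodes the checkpoint ligand PD-L1, was 107, 106 and 105 FPKM in RFP+ and 96.9, 88.5 and 94.7 FPKM in RFP- (log2 0.18 ± 0.14, limma adjusted p = 1). Monocyte-like genes held 2 of 23 higher, Thbs1 and F13a1, and the monocyte chemokine receptor Ccr2 had a log2 difference of -0.68 ± 0.16 (limma adjusted p = 0.149, and 0.000523 alone). Among immediate early and dissociation genes, which sorting can raise, 1 of 27 was called, Ier3 (319, 335 and 412 FPKM in RFP+ and 207, 238 and 208 FPKM in RFP-, log2 0.70 ± 0.13 (SE, limma adjusted p = 0.0419)), with a list median of 0.08.

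Of the 62 called genes, 31 were in a functional list and 31, Arg1 among them, in none. Among the named ones, Htr2b, a serotonin receptor, was 6.73, 6.58 and 6.14 FPKM in RFP+ and 0.878, 1.29 and 0.811 FPKM in RFP- (log2 1.92 ± 0.31 (SE, limma adjusted p = 0.023)), S1pr1, a receptor for sphingosine 1-phosphate, was 10.01, 17.3 and 8.42 FPKM in RFP+ and 1.87, 7.13 and 1.93 FPKM in RFP- (log2 1.60 ± 0.22 (SE, limma adjusted p = 0.00854)), and Tmeff1, a membrane protein, was 22.2, 14.4 and 10.1 FPKM in RFP+ and 5.72, 4.89 and 5.41 FPKM in RFP- (log2 1.32 ± 0.22 (SE, limma adjusted p = 0.0238)). Others were picked out after their values were seen. The neuropeptide gene Npy, which passed the filter through RFP+ only, was 4.59, 3.701 and 2.201 FPKM in RFP+ and 0.266, 0 and 0 FPKM in RFP-. The glutathione transferases Gstm1 and Mgst1 had log2 differences of 0.98 ± 0.12 and 0.97 ± 0.13 (limma adjusted p = 0.00705 and 0.00803), and Pdpn, the platelet receptor ligand podoplanin, had a log2 difference of 0.93 ± 0.16 (limma adjusted p = 0.0317). Fcrls, an Fc receptor-like gene, had 0.87 ± 0.13 and Trf, transferrin, 0.59 ± 0.11 (limma adjusted p = 0.0124 and 0.0389). The rest of the higher genes were AA467197, Emp1, Fam20c, Gdpd1, P2ry2, Pmp22, Prss46, Rgcc, Serpinb6a, Smpdl3a, Syngr1 and Tnfaip2, and the rest of the lower ones Fcrl5, Tespa1 and the small nucleolar RNA Snord15b.

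The 3 pairs did not differ evenly. For 29 of the 49 higher genes pair 2 had the smallest difference, for 14 pair 3 and for 6 pair 1. For the 13 lower genes it was pair 2 for 1, pair 3 for 7 and pair 1 for 5. RFP- library 2 held more of Folr2, F13a1, S1pr1, Pf4, Spp1 and Mmp12 than the other RFP- libraries, and RFP+ library 2 had more of the last 5 than the other RFP+ libraries.

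Set beside B16F10, most called genes went the same way. Of the 62, 57 (91.9%) had the same sign there, where 53.7% of all genes tested did. In B16F10, 161 of the 10609 genes tested were called in the same fit. They held 32 of the 62 (30 higher, 2 lower), which is 51.6% of the MC38 calls and 19.9% of the B16F10 calls. That fit gives a gene the same SE in both tumours, so the calls are not independent. The overlap was not tested. A test of the difference itself, the MC38 minus the B16F10 log2 difference, gave 1 gene higher (0.00943%) and 3 lower (0.0283%). Ass1 differed by 1.86 ± 0.24 (SE, limma adjusted p = 0.0292), with 0.16 ± 0.17 in MC38 and -1.70 ± 0.17 in B16F10. Ppbp differed by -3.96 ± 0.46 (SE, limma adjusted p = 0.0292), with 0.14 ± 0.32 in MC38 and 4.10 ± 0.32 in B16F10. Ctsl was higher in both, 0.60 ± 0.10 in MC38 and 1.74 ± 0.10 in B16F10, a difference of -1.14 ± 0.15 (SE, limma adjusted p = 0.0292). Snord15b was the fourth, and it was listed at 0 FPKM in all 6 B16F10 libraries, so its difference between tumours restates that in MC38. None of the 4 was called for this difference without the replicate block, which gave 0 genes in either direction. The most frequent ratio of low values to those of RFP- library 1 of MC38 was 2.71 to 3.25 in the B16F10 libraries, held by 4.69% to 7.94% of low genes, so low genes may be less precise there.

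For other genes the difference between tumours did not pass. Spp1 was 1.52 ± 0.12 in MC38 and 2.74 ± 0.12 in B16F10, a difference of -1.22 ± 0.18 (SE, limma adjusted p = 0.0558). Gpnmb was 1.11 ± 0.14 and -0.06 ± 0.14, a difference of 1.17 ± 0.20 (SE, limma adjusted p = 0.124). P4ha2 was 1.07 ± 0.14 and 0.05 ± 0.14, a difference of 1.01 ± 0.20 (SE, limma adjusted p = 0.244). H2-Ab1 was -0.46 ± 0.22 and -1.54 ± 0.22, a difference of 1.07 ± 0.31 (SE, limma adjusted p = 0.465). Pf4 was 1.31 ± 0.19 and 1.74 ± 0.19, a difference of -0.43 ± 0.26 (SE, limma adjusted p = 0.602).

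**Figure D5:**
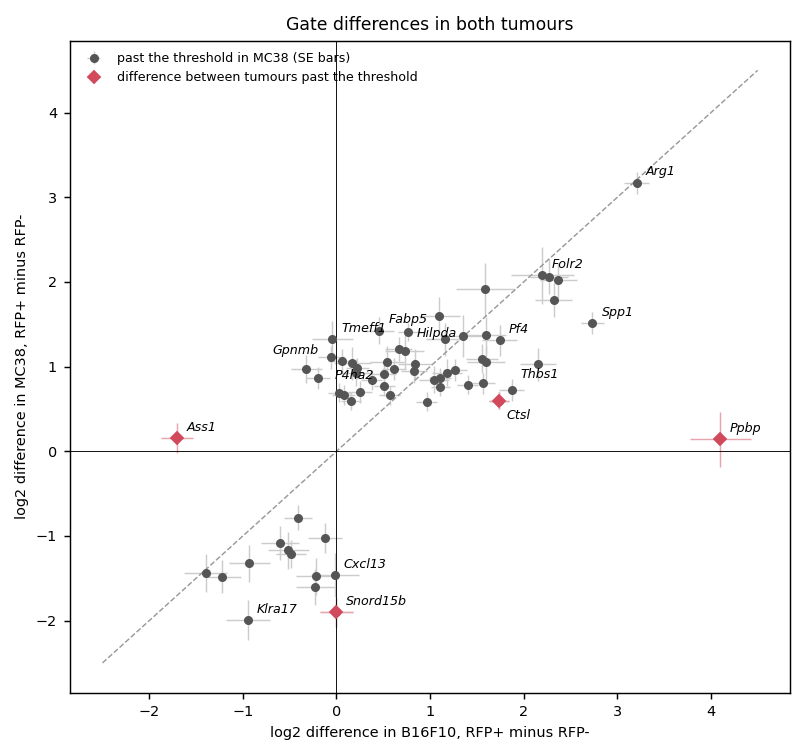
Log2 difference between RFP+ and RFP- in MC38 (y axis) against that in B16F10 (x axis) for the 62 genes called in MC38 and the 4 genes whose difference between tumours was called (red diamonds, of which Ctsl and Snord15b belong to both; the others are grey), with SE bars and a dashed line of equal differences. Arg1 lies near the line at 3.17 and 3.21, Ppbp far to the right at 4.10 in B16F10, and Ass1 to the left at -1.70.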

How the data were processed

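Bulk RNA-seq was read from 12 tables, 1 per library, of gene symbols with FPKM values, as the authors deposited them and per the file headers. RNA was extracted with TRI Reagent, and cDNA and libraries were prepared with SMART-Seq HT and Nextera XT kits, per the labels' protocols. TopHat2 2.1.1, Bowtie2 2.2.8, SAMtools 0.1.18, Cuffdiff 2.2.1 and the mm10 build (GRCm38) are named in the submitters' processing notes. The sources used here do not give the annotation, the strand setting or the scaling between libraries. Read totals are not used here, so depth is unknown, and ratios among low values are only a weak guide to it.

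From these values log2(FPKM + 1) was taken, genes under 1 FPKM in all but 2 of the 6 MC38 libraries were dropped, and limma 3.58.1 in R 4.3.3 (lmFit, eBayes with a trend, two-sided) was fitted to all 12 libraries with the library number within each tumour as a block. This left 4 residual degrees of freedom, and the paired fit of the MC38 libraries alone left fewer. The Benjamini-Hochberg adjustment ran over the 10609 genes, with a threshold of 0.05. Levels carry the SD of 3 libraries and log2 differences the SE of the fit. The fit was run on data simulated from its own model with known changes, which checks the code and not whether the model holds for these libraries.

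Pairing was checked: deviations from the group means correlated across genes at r = 0.278, 0.297 and 0.448 for libraries of the same number, above the limit of 0.1, and at -0.304 to 0.0142 for different numbers. Deviations cancel out within a gate, so the values for different numbers follow in part from those for the same number and are no separate evidence. The Y-linked gene Eif2s3y was at 39.8 and 40.5 FPKM in both libraries of number 3 and near 0 in the others, so part of the spread is between animals. The design text gives 3 mice per group, but the labels name no animal for any library, so p-values measure the spread between these libraries, which may be partly technical.

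Of 884 listed genes in 26 functional and 13 cell type lists, 875 matched a symbol. Members and lists were chosen with earlier results of these data known, so lists are described by counts and medians with no test. Named genes were the 14 largest called differences in each direction with a mean of at least 5 FPKM in 1 gate and the same sign in 3 pairs (predicted genes, microRNAs and snoRNAs left out), 14 fixed genes (Arg1, Pf4, Spp1, Hilpda, Vegfa, Nos2, Mrc1, Cd274, H2-Ab1, C1qa, Cxcl9, Ccl2, Il1b, Trem2), up to 4 called members per functional list, the 6 most abundant per gate and up to 6 genes that differed between tumours. List members given with a p that missed the threshold were picked after their values were seen. Coordinates came from GENCODE M21 and promoters from RefSeq (GRCm38.p6). Python 3.11.15 and matplotlib 3.10.9 made the promoter counts and plots. In all, 18 alternative fits were run.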

Additional observations from a re-analysis of the deposited data

Results flagged for a closer look

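The 4 genes below had a gate difference in MC38 that departed from that in B16F10 by the test of the difference itself. Ass1, an enzyme of arginine synthesis, departed by 1.86 ± 0.24 (SE, limma adjusted p = 0.0292). It did not differ beyond the threshold between gates in MC38 and was lower in RFP+ in B16F10. Ppbp, a platelet chemokine gene, departed by -3.96 ± 0.46 (SE, limma adjusted p = 0.0292), near the floor in both MC38 gates. Ctsl, cathepsin L, departed by -1.14 ± 0.15 (SE, limma adjusted p = 0.0292), higher in RFP+ in both tumours and less so in MC38.

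Snord15b, a small nucleolar RNA named because it is 1 of these 4, departed by -1.90 ± 0.25 (SE, limma adjusted p = 0.0292). It was 1.37, 0 and 0 FPKM in RFP+ and 9.302, 2.38 and 2.56 FPKM in RFP-, and its log2 difference was -1.90 ± 0.17 in MC38. It was listed at 0 FPKM in all 6 B16F10 libraries, so the departure only restates the MC38 difference. How far FPKM values of such a short RNA can be trusted in these libraries was not tested.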

How the results depend on the processing

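For MC38, 49 genes were higher and 13 lower in RFP+. Without the replicate block there were 3 and 0, with the MC38 libraries alone and paired 244 and 98, and with them alone and unpaired 11 and 1. A pseudocount of 0.1 gave 35 and 5, a pseudocount of 5 gave 59 and 22, no filter 2 and 1, and a filter of 5 FPKM 49 and 8. Quantile normalization gave 64 and 24, scaling to the macrophage core genes 22 and 9, array weights 205 and 67, a tested log2 difference of at least 1 gave 1 (Arg1) and 0, and leaving out the B16F10 pair numbered 12 gave 159 and 40. Without replicate 1, 2 or 3, where the pairing drops a number's libraries together, 4 to 10 were higher and 0 to 3 lower. The filter over all 12 libraries, upper-quartile scaling and scaling to equal totals kept both counts within 1.5 times. Of the 49 and 13, 22 and 8 were called again under core scaling, 28 and 9 under scaling to equal totals, and 33 and 5 at a pseudocount of 0.1. All 62 were called again with the MC38 libraries alone and paired, with array weights and without the B16F10 pair. Arg1 was called in all 18 alternatives. The log2 differences of the named genes kept their direction in every alternative wherever either fit called them.

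For the difference between tumours, 1 gene was higher and 3 were lower. There were 0 and 0 without the replicate block, with no filter, with a tested log2 difference of at least 1 and without replicate 1, 2 or 3. A pseudocount of 0.1 gave 1 and 0, a pseudocount of 5 gave 0 and 2, a filter of 5 FPKM 1 and 1, quantile normalization 2 and 6, equal totals 0 and 3, core scaling 1 and 0, array weights 57 and 26, and leaving out the B16F10 pair 8 and 7. The cause of these shifts was not tested. Scaling moved the median of all genes by less than 0.1, at most to -0.07 under core scaling.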

Other observations

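Library number set some genes apart in both gates alike, with no test made. A gene that passed the filter was counted when both libraries of a number lay at 10 FPKM or more and at least 2-fold above all 4 others. There were 25 such genes for number 3, 5 for number 2 and 2 for number 1. Those of number 3 held type I interferon-induced genes, such as Isg15 (100.1, 114 and 296 FPKM in RFP+ and 96.5, 104 and 266 FPKM in RFP-), Oas3 (19.8, 21.2 and 64.9 FPKM in RFP+ and 20.3, 17.2 and 56.3 FPKM in RFP-) and Irf7, the interferon regulatory factor (295, 321 and 650.5 FPKM in RFP+ and 299.7, 311 and 682 FPKM in RFP-). They also held inflammatory genes, such as Tnfsf9, a costimulatory ligand (94.4, 59.3 and 455 FPKM in RFP+ and 81.05, 89.2 and 363 FPKM in RFP-), Ccl12, a monocyte attractant (334, 560.2 and 1582 FPKM in RFP+ and 414, 589.9 and 1645 FPKM in RFP-), and Il1a, interleukin 1 alpha (57.5, 90.4 and 385 FPKM in RFP+ and 26.2, 52.8 and 237 FPKM in RFP-). The rule picks genes by their gap between numbers, so the size of that gap is no finding of its own. Of the genes given, Isg15 and Il1a were also higher in RFP+ within each number. The Y-linked gene Eif2s3y (39.8 and 40.5 FPKM) and Ddx3y (31.06 and 26.4 FPKM) met the same limits for number 3. They failed the filter, which needs 1 FPKM in at least 3 of the 6 libraries, so the 25 leave them out. Xist was 4.16 to 4.59 FPKM in numbers 1 and 2, and 0.0172 and 0.0389 FPKM in number 3. The part of sex in the genes of number 3 was not tested.

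The 5 genes of number 2 were Mgl2, Retnla, Ccl6, Ltc4s and Ltb4r1. Retnla, a secreted protein known from interleukin 4 responses, was 165, 780.2 and 36.1 FPKM in RFP+ and 224, 1406 and 6.96 FPKM in RFP-, and Mgl2, a galactose lectin of the same setting, 4.12, 25.9 and 5.75 FPKM in RFP+ and 6.62, 59.8 and 3.9997 FPKM in RFP-. Both were picked by their gap between numbers, and neither passed for the gate (limma adjusted p = 1 and 0.928).

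Of the 62 genes called in MC38, 12 (19.4%) lie on chromosome 6, which holds 4.83% of the 10208 tested genes with a GENCODE position. They are Clec4b1, Clec4d, Clec4n, Emp1, Gpnmb, Hilpda, Klra17, Klrb1b, Mgst1, Npy, Tmem176a and Tmem176b, of which Npy passed the filter through RFP+ only and is given no weight. This was noticed after the calls were made, some are neighbours of 1 family, and no test was run.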
